A study of Bactrocera oleae with 8 samples.

Results

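Contig03867 and contig02152 are sequences of the *Bactrocera oleae* array, among several that the study named as possibly involved in handling olive compounds, the first described in its tables as an ATP-dependent transporter and the second as an alpha-esterase. The array names probes by the assembled transcript (contig) they were designed on. The 2 contigs were found on the array by their names. The study had named them for being higher in green than in black olives on these same arrays. They are 2 of the 20516 contigs and other named sequences measured. Neither had a reverse-strand entry on the array. RNA was taken from pools of 20 second-instar larvae of the olive fruit fly that had developed in green olives, in black olives or on an artificial diet. Wild larvae were picked from infested green and black olives of the same orchard in different seasons. The diet-reared larvae came from eggs laid in the laboratory by females that had been reared out of that orchard's olives, and their food held olive oil, sugar, yeast, soy hydrolysate and cellulose. Feeding regime, season and rearing therefore vary together and cannot be told apart.

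ABC transporters are membrane proteins that use the energy of ATP to move substrates across membranes. In insects, members of this family export lipids, pigments, conjugated metabolites and plant or synthetic toxins. Alpha-esterases belong to the carboxylesterases, which split ester bonds of dietary lipids, plant esters and insecticides, and in *Drosophila* many of them lie in a gene cluster. Unripe olives are rich in phenolic esters such as oleuropein. The name of contig03867 rests on a best protein match to GJ11875 of *Drosophila virilis*, and that of contig02152 on a match to GL12167 of *Drosophila persimilis*. None of the substrates of the 2 proteins is known from these data.

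Each of the 8 arrays compared 2 pools, and all were on a single slide. On every array the Cy5 dye marked the green olive pool. Cy3 marked a black olive pool on 4 arrays and a diet-reared pool on the remaining 4. No dyes were swapped, so a difference between green olives and another regime includes any difference between the dyes. The study's methods name 4 green olive replicates for both sets of arrays, so the 8 green olive channels may hold fewer than 8 separate pools. Over 13895 contigs, the deviations of each green olive channel in the black olive set from its set mean correlated with those of a different channel in the diet set, at r between 0.72 and 0.90, and the replicate numbers of these channels matched for replicate 4 only. The labels do not say which pools were shared, and the spread over the 8 channels is not taken as a spread over 8 pools. Black olives and artificial diet shared a dye but never an array. Of the spots for *B. oleae*, 56.9% to 67.2% per channel were well above background, and no spot was saturated. All 3 probes of contig03867 and all 4 of contig02152 were well above background in each of the 16 channels. The larvae were whole, so fewer cells of a type and less RNA per cell cannot be told apart.

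The transporter and the esterase were ordered the same way across the regimes, with the highest mean level on green olives, a lower one on artificial diet and the lowest on black olives. For contig03867 no ranges of the regimes overlapped, whereas the green olive and diet ranges of contig02152 did. Levels are normalized log2 intensities, on which a difference of 1 is a doubling, and they cannot be compared between the contigs because their probes differ.

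Contig03867 measured 13.08, 13.09, 13.10 and 13.04 in the green olive channels of the arrays shared with black olives (replicates 1 to 4). It measured 13.11, 13.07, 13.05 and 13.06 in the green olive channels of the arrays shared with artificial diet. The values were close together in both sets, at 13.08 ± 0.0284 (SD, n = 4) and 13.07 ± 0.0263 (SD, n = 4). In larvae fed on artificial diet the transporter measured 12.71, 12.66, 12.73 and 12.48, and in larvae fed on black olives 12.10, 11.71, 11.85 and 11.82. All 4 diet values lay below all 8 green olive values, a separation that 6.65% of the contigs showed. All 4 black olive values lay below all 4 diet values, as they did for 10.2% of the contigs. Black olive larvae varied most, at 11.87 ± 0.163 (SD, n = 4), against 12.64 ± 0.113 (SD, n = 4) on artificial diet.

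Contig02152 measured 9.83, 9.86, 9.65 and 9.96 in the green olive channels shared with black olives, and 9.98, 9.69, 9.76 and 9.97 in those shared with artificial diet. Levels of the esterase on artificial diet were 9.56, 9.44, 9.69 and 9.29. The highest diet value, in replicate 3, stood above the lowest green olive value, so these regimes overlapped. On black olives it measured 8.90, 8.30, 9.10 and 8.87, all below the 4 diet values, as for 10.2% of the contigs. Replicate 2 was the lowest black olive channel for both contigs after normalization. Before normalization, replicate 1 had the lowest black olive signal for all 3 probes of contig03867. The mean on black olives was 8.79 ± 0.343 (SD, n = 4), on artificial diet 9.49 ± 0.172 (SD, n = 4) and on green olives 9.82 ± 0.129 (SD, n = 4) in the first set of arrays and 9.85 ± 0.148 (SD, n = 4) in the second.

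**Figure D1:**
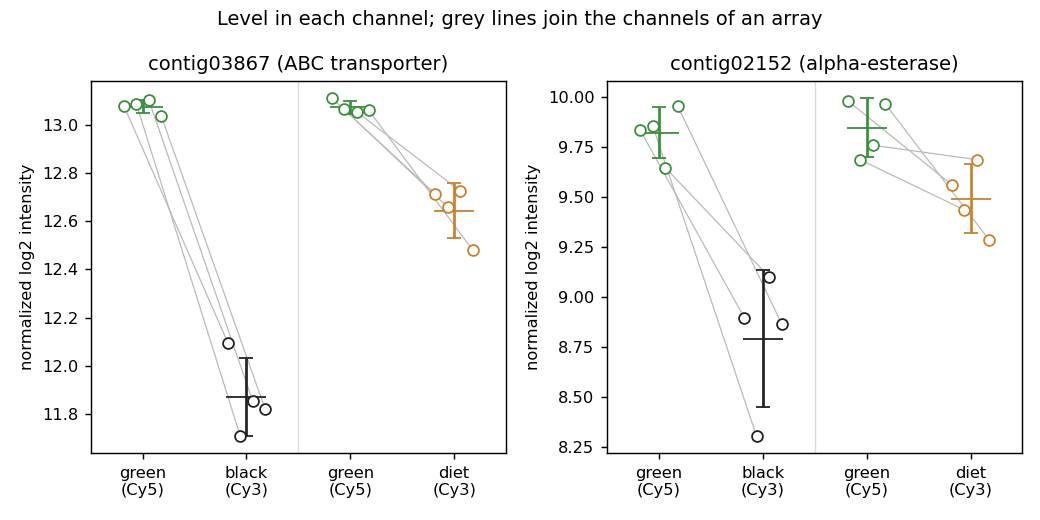
Normalized log2 intensity (vertical axis, scaled separately for each contig) of contig03867 and contig02152 in the 16 channels. Circles are single channels, horizontal marks with bars are means ± SD of 4 channels, and grey lines join the channels of one array; both contigs have their lowest values in black olive larvae, and the diet values of contig02152 reach into the green olive range.

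The green olive channel was also compared between the sets of arrays, since regime and dye were the same in both. Between the diet arrays and the black olive arrays it differed by −0.0030 on the log2 scale for contig03867 (two-sided exact permutation test, p = 0.943, 4 against 4 arrays) and by 0.025 for contig02152 (p = 0.857 in the same exact test). The smallest p this test can give is 0.0286.

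The comparison of larvae fed on green olives with larvae on artificial diet asks which transcripts differ between the natural unripe host and a laboratory food. The study named the 2 contigs for green against black olives and not for this comparison. Its arrays are still not wholly apart from that choice. They may hold the same green olive pools, and in a linear model of all arrays they share in the estimate of the spread. Both contigs were higher on green olives on all 4 arrays, as were 20.9% of all contigs, and neither passed both thresholds of the methods, 0.05 for the adjusted p and 1 for the size of the log2 fold change. With both thresholds 0.770% of contigs were called higher and 0.283% lower on green olives.

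The log2 ratio of green olives over diet for contig03867 was 0.40, 0.41, 0.33 and 0.58 on replicates 1 to 4. Its fitted log2 fold change was 0.43 (95% confidence interval 0.27 to 0.59), or 1.35-fold, with an adjusted p of 0.0108 in limma with Benjamini-Hochberg adjustment. With an adjusted p below 0.05 and no fold threshold, 5.66% of contigs were called higher. The interval lay wholly under the fold threshold, and 894 contigs had a higher fold. Without replicate 4 of the diet arrays, where the ratio was highest, the fold change was 0.38 and the adjusted p 0.0512 in limma.

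For contig02152 the log2 ratios of green olives over diet were 0.42, 0.25, 0.07 and 0.68. The ratios spread more than those of the transporter, from nearly no difference on replicate 3 to 1.60-fold on replicate 4. The fitted log2 fold change was 0.36 (95% confidence interval 0.0051 to 0.71), or 1.28-fold, and its adjusted p was 0.173 in limma, so the esterase did not pass the test. Residual spread in the model was 0.347 on the log2 scale for contig02152, larger than for 87.7% of contigs, and 0.139 for contig03867, larger than for 42.9%.

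The comparison of larvae fed on black olives with larvae on artificial diet runs through the green olive channel. The black olive arrays in it are the ones on which the study had named the contigs, so it is not independent of that choice. The transporter was lower on black olives than on diet and the esterase did not pass the test in the linear model. With both thresholds 0.327% of contigs were called higher and 0.609% lower on black olives, and neither contig was among them.

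Contig03867 had a log2 fold change of −0.78 between black olives and diet (95% confidence interval −1.003 to −0.551), which is 1.71-fold lower on black olives. The adjusted p was 0.00743 in limma, and 2.67% of contigs were lower on black olives with an adjusted p below 0.05 at any fold. All 4 green-over-black ratios lay above all 4 green-over-diet ratios, as for 7.91% of contigs, and the exact permutation test of the ratios gave p = 0.0286 (two-sided, 4 against 4 arrays), the smallest it can give.

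Contig02152 had a log2 fold change of −0.68 (95% confidence interval −1.17 to −0.18), or 1.60-fold lower on black olives, with an adjusted p of 0.109 in limma. The 2 sets of ratios overlapped, because the lowest green-over-black ratio, 0.55, stood under the highest green-over-diet ratio, 0.68. The exact permutation test of the ratios gave p = 0.0571 (two-sided, 4 against 4 arrays). In the Cy3 channel alone, black olives were lower than diet with no overlap, as for 10.2% of contigs. The mean difference was −0.70 on the log2 scale (exact permutation test, p = 0.0286, the smallest it can give). For the transporter that difference was −0.77, with the same exact p = 0.0286. The black olive values took part in the study's choice of both contigs, so these differences are a description.

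Larvae fed on green olives were also compared with larvae fed on black olives, to find transcripts that differ between unripe and ripe fruit. The study named the 2 contigs for their difference here, on these arrays, so the values are a description. Contig03867 had green-over-black log2 ratios of 0.98, 1.38, 1.25 and 1.22, and contig02152 had 0.94, 1.55, 0.55 and 1.09. Both were higher on green olives on all 4 arrays and both had their highest ratio on replicate 2. The fitted log2 fold change was 1.21 for contig03867 (95% confidence interval 1.05 to 1.37), or 2.31-fold, and 1.03 for contig02152 (0.68 to 1.38), or 2.04-fold.

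The esterase lay just beyond the fold threshold of 1, and the interval of the transporter lay wholly above it. With both thresholds 1.74% of contigs were called higher and 0.512% lower on green olives, and 274 contigs had a higher fold than contig03867 and 370 a higher fold than contig02152. All 8 green olive values lay above all 4 black olive values for both contigs, as for 9.73% of all contigs. Without replicate 2 of the black olive arrays the log2 fold change of contig02152 was 0.86, under the threshold.

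**Figure D2:**
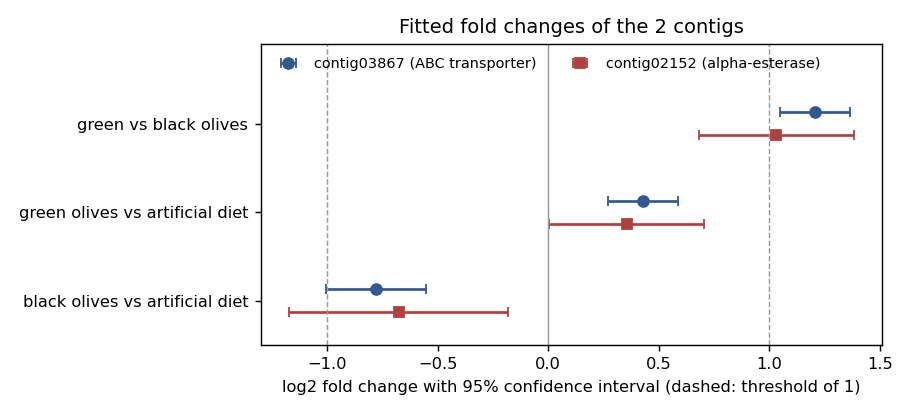
Fitted log2 fold changes (horizontal axis) with 95% confidence intervals of contig03867 and contig02152 in the 3 comparisons, with dashed lines at the threshold of 1 on either side. Both contigs lie beyond the line in green against black olives and inside the lines in the comparisons with artificial diet, where the interval of contig02152 for green olives starts at 0.0051.

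The single probes showed how far each contig's value rests on one stretch of its sequence. For contig03867 all 3 probes gave like ratios. Their mean log2 ratios of green over black olives were 1.31, 1.24 and 1.06, and those of green olives over diet were 0.477, 0.477 and 0.334. Each of the 12 single ratios of green olives over diet was above 0, between 0.21 and 0.64. For each of the 3 probes, all green-over-black ratios lay above all green-over-diet ratios.

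Probes of contig02152 differed from each other. Probes 1 and 2 had mean log2 ratios of green over black olives of 0.82 and 0.63, and probes 3 and 4 had 1.41 and 1.27. Against diet the same probes had means of 0.29 and 0.15, and of 0.54 and 0.43. Replicate 3 of the diet arrays was below 0 for probes 1 and 2, at −0.17 and −0.12, and above 0 for probes 3 and 4. The probes with the smaller ratios were nearer to the background, with a lowest Cy3 signal of 6.74 and 4.36 times the local background, against 18.7 and 14.5 times for probes 3 and 4 and at least 66.8 times for the probes of contig03867. The part of this in the size of the ratios was not tested. Only for probe 3 did the green-over-black and green-over-diet ratios not overlap.

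**Figure D3:**
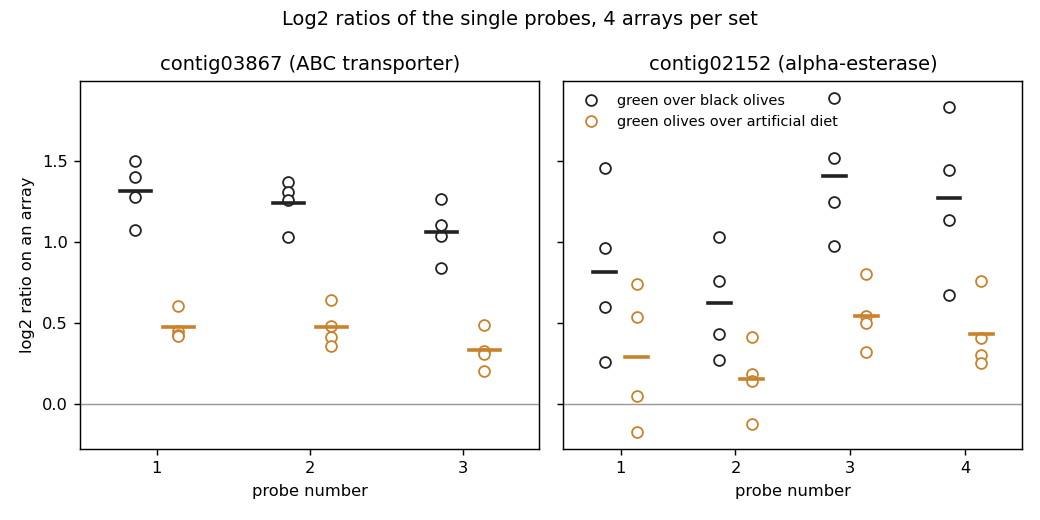
Log2 ratio of green olives over the other regime (vertical axis) for each probe (horizontal axis) of contig03867 and contig02152. Circles are single arrays and bars are means of 4 arrays; the 3 probes of contig03867 lie close together, whereas probes 1 and 2 of contig02152 have smaller ratios than probes 3 and 4.

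Across the 16 channels, which share 8 arrays, the normalized log2 intensities of the 2 contigs had a Pearson correlation of 0.940, given as a description. The study named both contigs for the same green-over-black difference, so a high correlation follows in part from that choice. Among the 11839 other contigs that were well above background in every channel, 77 were more like contig03867 than contig02152 was, and 17 were more like contig02152 than contig03867 was. Both contigs had their highest green-over-diet ratio on replicate 4 and their lowest on replicate 3. The pattern nearest to contig03867 was that of contig06773 (r = 0.985), described as Jonah 65Aiv, a serine protease of the *Drosophila* larval gut. It was followed by contig04218 (r = 0.977), described as antigen 5-related 2, the reverse-strand entries rc_contig08136 (r = 0.974) and rc_contig05574 (r = 0.971), and contig07006 (r = 0.971), another Jonah 65Aiv. All of these neighbours of contig03867 were themselves called higher on green than on black olives, where 1.74% of all contigs were. They were picked for their likeness to a contig named for that difference, so this follows in part from the choice. Those nearest to contig02152 were contig03908 (r = 0.980), contig00924 (r = 0.978), rc_contig02167 (r = 0.974), contig01926 (r = 0.967) and contig08561 (r = 0.963), none with a description here. Of these neighbours of contig02152, contig03908 was called higher on green than on black olives and the others were not. Descriptions were at hand only for contigs called on these arrays.

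Other contigs of the same kinds of function gave the setting. The study's tables mark 11 further contigs for detoxification. The tables list only contigs called on these arrays, so the counts, medians and directions of every list taken from them follow in part from that selection and are a description. Against diet, the 11 had a median log2 fold change of 0.38 on green olives, against 0.0091 over all contigs. Of the 11, 4 were called higher, beside 0.770% of all contigs, and none lower. The called ones were contig04001 (log2 fold change 1.85), a glycosyltransferase-like contig that the study counts among the UDP-glycosyltransferases, enzymes that attach sugars to small molecules, contig03604 (1.55), a cytochrome P450 28A1, contig03020 (1.38), a conserved protein, and contig03118 (1.004), a glycine N-methyltransferase. Cytochrome P450s oxidize lipids, hormones and xenobiotics. In this list 5 contigs had a higher fold than the transporter and 7 a higher fold than the esterase.

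Between black olives and diet, the 11 had a median log2 fold change of 0.47. On black olives 5 of them were called higher, beside 0.327% of all contigs, and none lower. They included contig03604 (2.19), the cytochrome P450 contig10157 (1.18) and the glutathione S-transferases contig09042 (1.17) and contig07812 (1.11), enzymes that join glutathione to reactive compounds. The transporter and the esterase, at −0.78 and −0.68, lay on the other side of 0. So did contig04142, at −1.04 (adjusted p = 0.113 in limma), the lowest of the list, described only by a match to a *Drosophila ananassae* protein. The contigs of the list that the study counts as glycosyltransferases were also below 0. They were contig04001 at −0.60 (adjusted p = 0.101 in limma), contig01274 at −0.70 (0.166), contig05006 at −0.76 (0.0206) and contig06187 at −0.33 (0.140). None of these contigs below 0 passed both thresholds.

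A further 8 contigs of these tables, selected in the same way, have a detoxification enzyme in their description but no such mark. Against diet 4 of them were called lower on green olives, where 0.283% of all contigs were, and none higher, with a median log2 fold change of −1.16. They were contig00383 (−1.84), a cytochrome P450 6d8, the P450 monooxygenase contig04361 (−1.25), the UDP-glycosyltransferase contig02020 (−1.17) and the glutathione S-transferase contig03074 (−1.14). On black olives against diet 1 was called higher, the aldehyde dehydrogenase contig03770 (1.03), and 3 lower, among them the cytochrome P450 contig02809 (−2.45). Over all contigs 0.327% were called higher there and 0.609% lower. All 8 had a lower fold than the transporter and the esterase on green olives against diet.

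The array also carries 15 sequences named as cytochrome P450s of *B. oleae*, which were taken by name. Of the 15, boCYP12A3-13 and boCYP4G1-2 were not well above background. None of the 15 was called higher in any comparison. Over all contigs the shares called higher were 0.770% on green and 0.327% on black olives against diet, and 1.74% in green against black olives. With shares this small, none among 15 sequences is no result about them. Against diet 2 were called lower on green olives, beside 0.283% of all contigs, boCYP6A9-5 (−1.44) and boCYP6A14-7 (−1.26). The median log2 fold change was −0.29 over the 15. On black olives against diet 3 were called lower, beside 0.609% of all contigs, boCYP6A9-5 (−1.61), boCYP9F2-12 (−1.13) and boCYP6A14-7 (−1.08), with a median of −0.30. Whether such a sequence and a contig come from the same gene was not examined.

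Of the other esterases and lipases in the tables, contig00333, a carboxylesterase, had a log2 fold change of −0.53 on green olives against diet (adjusted p = 0.0273 in limma, under the fold threshold). It was called lower on black olives against diet, at −1.16 (adjusted p = 0.0125 in limma). Contig04753, a phospholipase A1 that is also marked for digestion, which splits fatty acids from phospholipids, had values near those of the esterase, 0.35 on green olives and −0.66 on black olives against diet, and neither passed the test. So contig02152 and the other carboxylesterase were on opposite sides of 0 on green olives and both below it on black olives.

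The tables hold 7 other membrane transporters. On green olives against diet their median log2 fold change was 0.079. Of the 7, 2 were called lower, beside 0.283% of all contigs, and none higher. These were contig06412 (−1.43), a copper transporter, and contig01188 (−1.03), a sodium-dependent phosphate transporter. Contig06411, a transporter of the major facilitator family, which carries small solutes without ATP, had 0.70 on green olives (adjusted p = 0.0357 in limma, under the fold threshold) and −0.86 on black olives against diet (adjusted p = 0.0764). On black olives against diet 2 were called lower, contig01188 (−1.31) and contig06412 (−1.16), and 1 higher, contig08447 (1.31), a monocarboxylate transporter. Over all contigs 0.609% were called lower there and 0.327% higher. The median of the 7 was −0.86, beside −0.78 for the ABC transporter.

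The tables mark 34 contigs for digestion, used here in place of midgut markers. Among them are a circadian clock-controlled protein (contig04487), apolipoprotein D-like contigs (contig07071, contig07056, contig05067) and lethal 34Fc (contig05196). Whether each is expressed in the midgut was not examined. The 34 were also taken from the called contigs, 26 of them called higher in green against black olives. The order of their mean levels is therefore no independent observation. Their mean log2 intensity lay between 14.01 and 14.35 in the 8 green olive channels, between 13.40 and 13.79 in the 4 diet channels and between 12.85 and 13.16 in the 4 black olive channels. In the black olive larvae 2 of the 34 were not well above background, and on artificial diet 1. Against diet 11 were called higher on green olives, beside 0.770% of all contigs, and none lower, with a median log2 fold change of 0.42. On black olives 2 were called higher and 7 lower, beside 0.327% and 0.609% of all contigs, with a median of −0.81. Among them were contig04596, a trypsin-like protease (2.64 on green olives and 2.08 on black olives), and the lysozyme contig06851 (−0.14 and −2.30). The part of the midgut in the values of the transporter and the esterase was not tested.

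The 30 contigs of general cell function had a mean log2 intensity between 13.01 and 13.23 in all 16 channels. None was called against diet on either kind of olive, and their median log2 fold changes were 0.044 and 0.039. Single members stood away from these medians. Contig04923, a heat shock protein 23, had 2.09 on green olives against diet (adjusted p = 0.0809 in limma) and was called higher in green against black olives, at 2.99, and contig03652 had −1.44 on green olives against diet. With the log2 ratios centred on the median of these contigs, an alternative chosen after seeing the data, the transporter had 0.40 on green and −0.84 on black olives against diet, and the esterase 0.33 and −0.74.

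**Figure D4:**
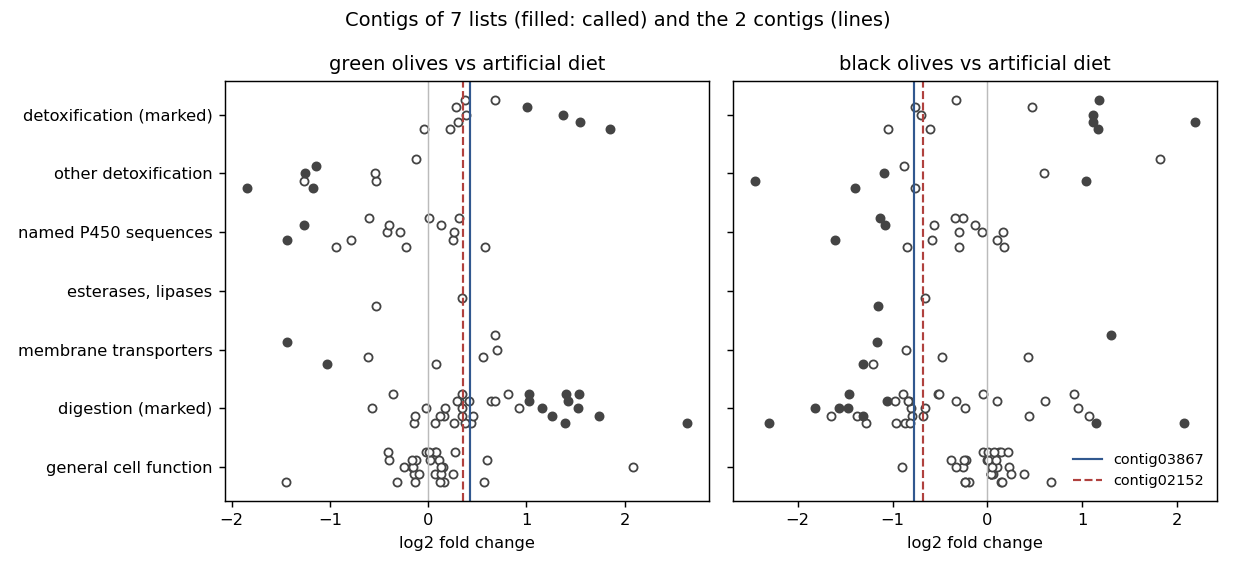
Log2 fold changes (horizontal axis) of the contigs of the 7 lists on green olives and on black olives against artificial diet, with filled circles for contigs that passed both thresholds and open circles for the others. The vertical lines at 0.43 and 0.36 on the left and at −0.78 and −0.68 on the right are contig03867 and contig02152. They lie outside most of the general cell function contigs. Digestion contigs and membrane transporters lie on both sides of each line. Both of these lists were taken from contigs called on these arrays, so their place beside the lines is a description.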

How the data were processed

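The authors deposited the scanner output of 8 2-colour Agilent arrays, extracted with Feature Extraction (10.7.3.1 per the file headers, 10.5 per the labels), with the median intensity of each spot and its local background, not normalized. Processed intensities and log10 ratios of Cy5 over Cy3 from the same software, deposited with them, and the deposited value table of log10 ratios served as alternatives.

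The methods' steps were repeated with limma (version 3.58.1, R 4.3.3). They were normexp with an offset of 50, loess, Aquantile, and a linear model of the 8 arrays in which each set of 4 had its own coefficient (6 residual degrees of freedom, to which empirical Bayes added 2.21). The 1319 control spots were left out after background correction, and the 46 to 128 outlier spots of an array got no weight. Probes were averaged within contigs. P-values were Benjamini-Hochberg adjusted over 20516 contigs, and calls needed an adjusted p below 0.05 together with a log2 fold change beyond 1 in size. The 13897 contigs well above background were those with at least 1 such probe on every array of a regime. The labels do not say that replicates came from separate collections, so p-values measure the spread between these pools. The model and the exact tests treat the 8 arrays as independent. Where the 2 sets share green olive pools they are not, and the p-values do not take this into account. The number of arrays limits the precision.

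The 2 contigs and all lists were chosen with earlier results of these data known. By rule, the text names the 2 contigs with their probes, the 5 contigs most correlated with each, and up to 4 contigs of a list with the largest change in a comparison. Contig03770 and contig04142 were named after their values were seen. Descriptions come from the study's tables, and those tables' columns of fold changes and p-values were not used. The 2 contigs matched no entry of the RefSeq gene table at hand, and no sequences are shown. The RT-qPCR and the sequencing of the symbiont were not analysed here.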

Additional observations from a re-analysis of the deposited data

How the results depend on the processing

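Both contigs kept the direction of each log2 fold change under all alternatives run, and contig03867 ranged from 0.38 to 0.50 on green olives and from −0.85 to −0.68 on black olives against diet. When changes were tested against the fold threshold itself (limma's treat), neither contig was called in green against black olives, at unchanged log2 fold changes of 1.21 and 1.03. Leaving out single arrays moved contig02152 there from 0.86 to 1.19, and it was not called without replicate 2 of the black olive arrays. Neither contig was called against diet under any alternative. The adjusted p of contig03867 ended above 0.05 on green olives against diet without replicate 4 of the diet arrays (0.0512) and with the replicate number as a block (0.0648), and on black olives with that block (0.0810). In the separate-channel model, which counts the 8 green olive channels as separate pools, contig02152 had an adjusted p of 0.0418 on green and 0.00231 on black olives against diet, in limma as the others.

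Counts of called contigs moved more. From 216 on green olives against diet they went to 827 with the scanner's processed signals, 613 with the value table, 38 with treat, and 129 to 235 without single arrays, lowest without diet replicate 4. From 192 on black olives against diet they went to 345 with processed signals, 17 with treat, 314 in the separate-channel model, 122 with the row of the slide, and 118 to 206 without single arrays, lowest without diet replicates 3 and 1 (123). From 462 in green against black olives they went to 1016, 961 with the value table, and 19 with treat. The causes were not tested. The replicate numbers did not pair the arrays: the correlation of same-numbered deviations ran from −0.73 to 0.46, and 1 of 4 arrays was most like its own number. In the green olive channel alone, same-numbered deviations correlated between −0.60 and 0.85, and the best partners at 0.72 to 0.90. With the replicate number as a block, 120 and 34 contigs were called against diet on green and black olives, and log2 fold changes were unchanged. The lowest signals over background were those of probes 1 and 2 of contig02152.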
